A study of Mus musculus with 3 samples.

Results

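Endothelial cells line the blood and lymphatic vessels of the thymus. They were identified among single cells of mouse fetal thymic lobes by their transcripts. A cell barcode was selected when it had no UMI of Epcam (epithelial adhesion) or Ptprc (CD45, on blood cells) and a UMI of at least 3 of the 5 endothelial genes Cdh5, Pecam1, Sox18, Ecscr and Kdr, one of them Cdh5 or Pecam1. A UMI is a molecular tag that marks 1 captured transcript. Of 19932 barcodes kept after quality limits, 212 met this rule. The values of the 5 genes chose the barcodes, so these values are a description and not a result.

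The lobes came from C57BL/6 embryos at gestational day 13 to 13.5 and were dissociated with trypsin. There was 1 droplet library (3′ gene expression) for each of 3 genotypes. The first was wild type (WT), which gave 45 endothelial barcodes of 5552. The second was labelled Tbx1neo2/neo2, an allele with a neomycin cassette in an intron of Tbx1, and gave 89 of 5133. The third was Foxn11089/1089, a short deletion within the coding sequence of Foxn1, and gave 78 of 9247. The mutations were in the germ line, so all cells of an embryo carried them. How many embryos were pooled, and of which sex, is not stated in the sources used here. With 1 library per genotype no difference between genotypes has a replicate check. The intervals in parentheses are 95% intervals that cover counting error only.

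Blood endothelium first forms an even capillary plexus, which is remodelled into arteries and veins under Notch, VEGF and flow signals. Arterial cells carry Notch ligands and gap junction connexins, venous cells carry Nr2f2 and Ephb4, and lymphatic cells arise from veins under Prox1. In the fetal thymus, vessels enter with the mesenchyme from outside the epithelial lobe and become the route of blood cell progenitors. The elastic wall of large arteries is made mostly by smooth muscle, and by endothelium in a smaller part.

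The endothelial barcodes carried 729492 UMIs in the WT library, 3061575 in the library labelled Tbx1neo2/neo2 and 3110734 in the Foxn11089/1089 library. Their median depth was 17013, 21315 and 35580 UMIs, and their median mitochondrial share was 3.38%, 7.32% and 5.10%. The deepest had 31692, 242469 and 166136 UMIs. Sums over a library weigh each barcode by its depth, so the deepest barcodes count most in them. Of the deposited barcode sequences, 34, 44 and 45 were also found in another library, and no endothelial barcode was endothelial in more than 1 library. Scrublet marked 6, 6 and 13 endothelial barcodes as likely doublets, which were kept.

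The targeted genes were examined first. Tbx1, on chromosome 16, is a T-box factor of the pharyngeal region. Over all kept barcodes it stood at 1.46 CPM (UMIs scaled to a total of 1e+06) in the WT library, 5.06 CPM in the library labelled Tbx1neo2/neo2 and 6.36 CPM in the Foxn11089/1089 library. The level was therefore not lower under the Tbx1neo2/neo2 label than in WT, and every direction drawn from that library rests on its label. Whether 3′ tags report the effect of a cassette in an intron was not tested. In the endothelial barcodes Tbx1 stood at 27.4 CPM (16.7 to 42.3) in WT, 23.8 CPM (18.7 to 29.98) under the Tbx1neo2/neo2 label and 30.2 CPM (24.4 to 37.0) in Foxn11089/1089. These intervals overlap. Endothelial barcodes had 22.5-fold (13.1 to 36.7), 5.18-fold (4.01 to 6.62) and 5.13-fold (4.10 to 6.34) more Tbx1 per UMI than the other kept barcodes of their library, and held 17.5%, 11.2% and 9.08% of all its Tbx1 UMIs. Foxn1, the factor of thymic epithelial cells, had 0, 3 and 4 UMIs in the endothelial barcodes. The Foxn1 deletion leaves the 3′ end of the transcript in place, so 3′ tags do not check that genotype. Psmb11, a proteasome subunit of cortical epithelium that depends on Foxn1, stood at 113, 40.7 and 6.68 CPM in the other kept barcodes and was lowest in the Foxn11089/1089 library.

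The 5 genes of the rule stood at 271 to 845 CPM in the endothelial barcodes of the 3 libraries. Cdh5, the cadherin of endothelial junctions, stood at 681 CPM in WT, 845 CPM under the Tbx1neo2/neo2 label and 624 CPM in Foxn11089/1089. Pecam1 (CD31) stood at 271, 690 and 358 CPM. All 5 genes had a UMI in 34, 66 and 71 barcodes, and 4, 7 and 1 barcodes were just inside the rule with 3 genes. Just outside it, with 2 genes, were 3, 24 and 26 barcodes. Barcodes just inside had UMIs of a median of 12, 7 and 11 of 30 further endothelial genes, and those just outside of 6, 5 and 3. Both sides of the edge lay close together in the library labelled Tbx1neo2/neo2.

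Genes outside the rule also marked these barcodes as endothelium. The list of 30 further pan-endothelial genes summed to 6532, 10183 and 6713 CPM in the endothelial barcodes of WT, the Tbx1neo2/neo2-labelled library and Foxn11089/1089, against 257 to 268 CPM in the other kept barcodes. Every one of the 30 was detected. The genes most enriched over the other kept barcodes were led by Cldn5, the tight junction claudin of endothelium, at 121-fold with 1 CPM added to both sides. It stood at 380, 696 and 420 CPM. Next came Gja4 (connexin 37) at 107-fold, Sox17 (an endothelial SOX factor) at 91.1-fold, Nts (neurotensin) at 86.3-fold, the receptor Tie1 at 85.7-fold, Gpihbp1 (a capillary lipase anchor) at 76.9-fold and Plvap (the fenestral diaphragm protein) at 76.6-fold. Most of this list is fixed by how the barcodes were selected and is given as a description.

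Endothelial genes are commonly bound by ETS and SOX factors. The 250 bases before the start of 3 genes described below are printed because these genes show a steady, a split and a raised level in the data, and because their windows hold the motifs. The sequences are those of RefSeq on GRCm38.p6, on the strand of the gene, all 3 on the plus strand. Capitals mark the ETS motif, searched as CCGGAAG or CAGGAAG, and the SOX motif, searched as ACAATNG, on both strands. The windows are chr2:26580833-26581082 for Egfl7, chr9:37401722-37401971 for Robo4 and chr4:94739039-94739288 for Tek.
Egfl7: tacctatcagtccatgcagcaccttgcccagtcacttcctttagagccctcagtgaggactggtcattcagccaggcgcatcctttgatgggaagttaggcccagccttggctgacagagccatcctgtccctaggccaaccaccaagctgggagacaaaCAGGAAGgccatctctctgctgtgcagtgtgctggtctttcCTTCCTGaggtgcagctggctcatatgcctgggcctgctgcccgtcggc
Robo4: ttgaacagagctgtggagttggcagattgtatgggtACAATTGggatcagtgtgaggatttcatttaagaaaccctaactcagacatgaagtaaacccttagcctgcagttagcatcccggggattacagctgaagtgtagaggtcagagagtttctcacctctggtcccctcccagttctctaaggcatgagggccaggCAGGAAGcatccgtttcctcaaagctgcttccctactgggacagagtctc
Tek: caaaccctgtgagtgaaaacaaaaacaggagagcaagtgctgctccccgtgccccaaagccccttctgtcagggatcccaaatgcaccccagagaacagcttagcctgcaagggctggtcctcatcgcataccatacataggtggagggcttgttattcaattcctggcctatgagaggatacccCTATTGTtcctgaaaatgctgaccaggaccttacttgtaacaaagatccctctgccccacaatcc
In the printed window Egfl7 holds the ETS motif 90 and 49 bases before the start, the latter on the other strand. Egfl7 has further windows at other starts. The window chr2:26583615-26583864 held 1 ETS motif, and chr2:26586386-26586635 held neither motif. Robo4 holds the SOX motif 214 bases and the ETS motif 50 bases before its start. Tek holds the SOX motif 65 bases before its start, on the other strand. Of all 32851 such windows, 17% held the ETS motif and 6.91% the SOX motif. For 17 of the 30 pan-endothelial genes there were 22 windows, of which 9 held the ETS motif (40.9%) and 3 the SOX motif (13.6%). None of the 16 windows of arterial genes held either motif, 2 of the 6 windows of venous genes and 1 of the 9 of lymphatic genes held ETS. A motif match is a description of the letters in these windows. No window was given for Cdh5, Pecam1, Sox18 and Ecscr.

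The share of endothelial barcodes differed between the libraries. It was 0.811% (0.592 to 1.08) of kept barcodes in WT, 1.73% (1.39 to 2.13) in the library labelled Tbx1neo2/neo2 and 0.844% (0.667 to 1.05) in Foxn11089/1089. The share under the Tbx1neo2/neo2 label lay above both others beyond counting error. Other cells lost or gained from a lobe change such a share as well, and the data hold no count per lobe. The excess lay in barcodes with very high levels of Eln (elastin, ENSMUSG00000029675, chr5:134702593-134747323, minus strand, GRCm38) and Fbln5 (fibulin 5, which binds elastin to cells, ENSMUSG00000021186, chr12:101746565-101819055, minus strand).

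**Figure D1:**
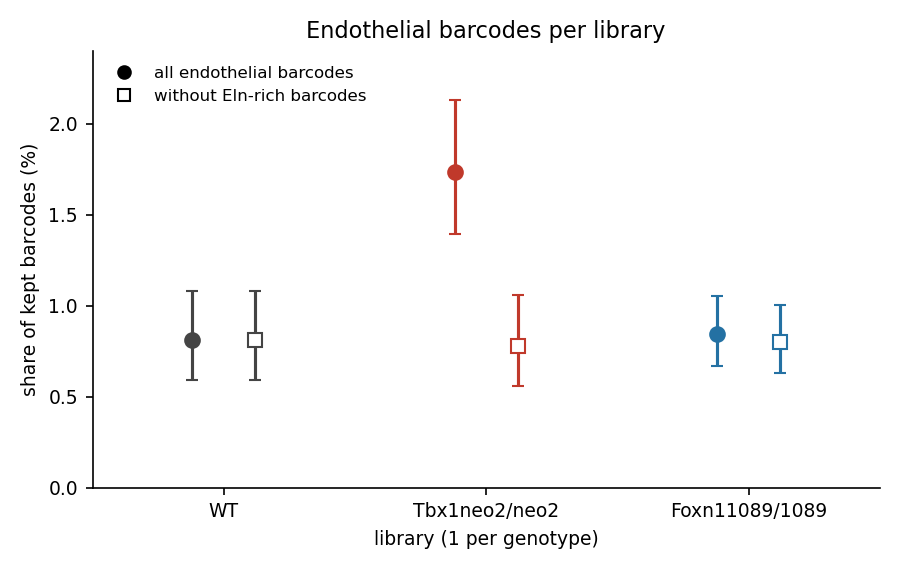
Share of kept barcodes that were endothelial, in percent, for each of the 3 libraries, with 95% counting intervals. Filled points are all endothelial barcodes and open squares are those outside the Eln-rich group. The library labelled Tbx1neo2/neo2 stands at 1.73% with the Eln-rich barcodes and at 0.779% without them, beside 0.811% in WT.

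Endothelial barcodes with at least 10 UMIs of Eln and Fbln5 per 10000 UMIs are called Eln-rich here. This line was drawn after the values were seen, and it cuts a range of levels and does not define a cell type. In WT 0 of 45 barcodes were Eln-rich, or 0% (0 to 7.87). In the library labelled Tbx1neo2/neo2 49 of 89 were Eln-rich, or 55.1% (44.1 to 65.6). In Foxn11089/1089 4 of 78 were Eln-rich, or 5.13% (1.41 to 12.6). Few barcodes lay near the line: 0, 2 and 1 had between 5 and 20 UMIs per 10000. The lowest Eln-rich barcode under the Tbx1neo2/neo2 label had 39.7 and the highest of the others 5.72, so that a gap separated them. Leaving the Eln-rich barcodes out, the endothelial shares were 0.811%, 0.779% (0.557 to 1.06) and 0.80% (0.629 to 1.0), and their intervals overlapped.

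Summed over all endothelial barcodes, Eln had 0 UMIs in WT, 9826 under the Tbx1neo2/neo2 label (3209 CPM) and 545 in Foxn11089/1089 (175 CPM). Against the 3 UMIs that a count of 0 allows in WT, this is at least 780-fold and at least 42.6-fold higher. Fbln5 had 0, 6715 and 367 UMIs, at least 533-fold and 28.7-fold higher. Mgp, the matrix Gla protein of vessel walls and cartilage, stood at 11, 1497 and 125 CPM. High Eln was not confined to endothelium in that library: 14.8% of its mesenchymal-marked barcodes (UMIs of 2 or more of Pdgfra, Twist1, Prrx1 and Prrx2) were past the same line, against 0.885% in WT and 0.528% in Foxn11089/1089. Among red blood cells of the Tbx1neo2/neo2-labelled library, which should lack both genes, 0.783% were past it.

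The Eln-rich barcodes also carried genes of large arteries. Within the library labelled Tbx1neo2/neo2 the 49 Eln-rich barcodes are set beside the 40 others in the sentences that follow. All of these genes come from the cells that were divided, so the values are a description. The 40 others include barcodes of 242469, 217629, 187265 and 161378 UMIs, which weigh most in their sums. Vwf, the von Willebrand factor, stood at 847 CPM in the Eln-rich barcodes, in 49 of 49, and at 87.4 CPM in the others, in 13 of 40. Bmx, a kinase of arterial endothelium, stood at 316 CPM in 49 barcodes and at 5.73 CPM in 5. Gja5 (connexin 40 of arteries) stood at 280 CPM in 40 barcodes and at 25.8 CPM in 4. The Notch ligand Jag1 was in all 49 at 701 CPM, against 24.8 CPM in the others, and the Notch target Hey2 in 45 at 184 CPM, against 0.956 CPM. Edn1, the vasoconstrictor endothelin 1, stood at 384 against 44.4 CPM, and Gja4 at 1144 against 87.4 CPM. Bmp4 and Tmem100, a ligand and a target of BMP signalling, stood at 295 against 20.5 CPM and at 206 against 12.4 CPM.

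Genes of the capillary plexus and some genes of veins were low in the same barcodes. Aplnr, the apelin receptor of sprouting and venous endothelium, stood at 9.29 CPM in 4 of 49 Eln-rich barcodes and at 447 CPM in 27 of 40 others. Nr2f2 (COUP-TFII, which keeps the venous state, chr7:70351944-70366735) stood at 1.03 CPM in 1 barcode and at 167 CPM in 27. Gpihbp1, Col15a1 (a basement membrane collagen), Apln (apelin) and Robo4 (a guidance receptor) had no UMI in any of the 49, where the others stood at 178, 275, 95.6 and 91.7 CPM. The basement membrane collagens Col4a1 and Col4a2 stood at 42.3 and 22.7 CPM against 1251 and 594 CPM. Fabp4, the fatty acid carrier of capillaries, stood at 23.7 against 706 CPM. Emcn, a sialomucin of capillaries and veins, stood at 116 against 835 CPM. Not all venous genes were low. Vwf, also on the venous list, was high as given above. Ephb4 stood at 116 CPM over all endothelial barcodes of the library labelled Tbx1neo2/neo2, with a like level outside the Eln-rich ones.

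The division was also read barcode by barcode. Of 7 large-artery genes (Vwf, Bmx, Edn1, Gja5, Hey2, Bmp4 and Tmem100) the Eln-rich barcodes under the Tbx1neo2/neo2 label had UMIs of a median of 6, and 47 of 49 had 4 or more. The other endothelial barcodes had a median of 0 in WT, 1 under the Tbx1neo2/neo2 label and 0 in Foxn11089/1089. Of 6 plexus genes (Aplnr, Gpihbp1, Col15a1, Kcne3, Apln and Nid2) the Eln-rich barcodes had a median of 0. The others had 2 or more in 39 of 45, 32 of 40 and 69 of 74. Outside the Eln-rich group, 2 of 40 barcodes under the Tbx1neo2/neo2 label and 2 of 74 in Foxn11089/1089 had 4 or more large-artery genes, 1 of the former with 6, and 7 of the 40 had neither set. These gene sets were picked from the same values, so their agreement with the division is built in. The 4 Eln-rich barcodes of Foxn11089/1089 were less uniform: 3 had 78.0 to 85.5 UMIs of Eln and Fbln5 per 10000 with 5 to 7 large-artery genes and 0 or 1 plexus genes, and the last had 10.9 with 2 large-artery and 6 plexus genes. Of these 4, Scrublet marked 2 as likely doublets, and their 9 mesenchymal genes summed to 4154 CPM. The barcode with 10.9 had 147249 UMIs, beside 51443, 31588 and 9945 in the other 3, so it weighs most in this sum.

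**Figure D2:**
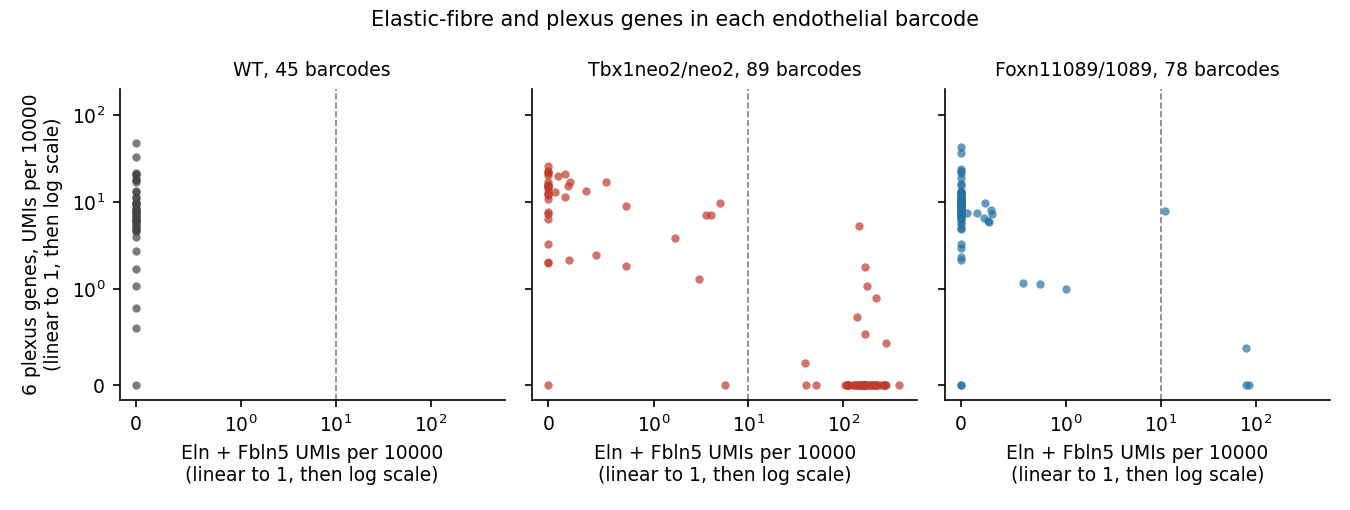
Each point is 1 endothelial barcode (45, 89 and 78 in the 3 panels), with UMIs of Eln and Fbln5 per 10000 on the x axis and UMIs of 6 plexus genes per 10000 on the y axis, both axes linear up to 1 and logarithmic above it. The dashed line marks 10. The 49 barcodes right of the line under the Tbx1neo2/neo2 label lie almost all at a plexus level of 0, while 0 WT and 4 Foxn11089/1089 barcodes lie right of it.

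The Eln-rich barcodes carried most of the pan-endothelial genes, and 2 of the 30 (Gpihbp1 and Robo4) were at 0. Their median was 24 of the 30 pan-endothelial genes, beside 21, 27 and 26 in the other barcodes of the 3 libraries, and the list summed to 15400 CPM. Pecam1 stood at 1021 against 537 CPM in the other barcodes of the library, Cd34 (a sialomucin of vessel lining) at 2966 against 442 CPM, Ptprb (the phosphatase VE-PTP) at 922 against 102 CPM and Tek (the angiopoietin receptor TIE2) at 548 against 112 CPM. Lists for other cell types were read in the same barcodes. The 9 mesenchymal genes summed to 353 CPM, beside 567 CPM in the other endothelial barcodes of that library and 9175 CPM in its mesenchymal-marked barcodes. The 8 pericyte and smooth muscle genes summed to 193 CPM with 1 at 0, and the pericyte gene Rgs5 stood at 2.06 CPM. The 5 endocardial genes summed to 109 CPM against 66.4 CPM. The 10 epithelial genes summed to 221 CPM against 46.8 CPM with 3 at 0, of which Krt18 had 154 CPM. The 7 macrophage genes summed to 2.06 CPM, with 6 at 0. Of the 49, 6 had UMIs of 2 or more of the 4 mesenchymal marker genes. Without such barcodes, 43 of 80 endothelial barcodes in the library were Eln-rich (53.8%).

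Transcripts of the sex chromosomes were read because the number of embryos is not known. Of the 49 Eln-rich barcodes under the Tbx1neo2/neo2 label, 45 had Y-linked UMIs and no Xist, 0 had Xist alone, 2 had both and 2 had neither. Of the 40 others, 22 had Y-linked UMIs alone and 6 had Xist alone. Of the other kept barcodes of that library with 1 kind, 86.6% had the Y-linked kind. Each library held barcodes of both kinds, which puts embryos of both sexes in each. Among endothelial barcodes with Y-linked UMIs alone, 45 of 67 (67.2%) were Eln-rich under the Tbx1neo2/neo2 label and 0 of 17 in WT. Embryo and genotype cannot be told apart with 1 library each. The files do not give where in the dissected tissue a barcode lay, so vessels within the lobe and vessels adjoining it cannot be told apart either, and the 1.73% share holds the Eln-rich barcodes from wherever they came.

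**Figure D3:**
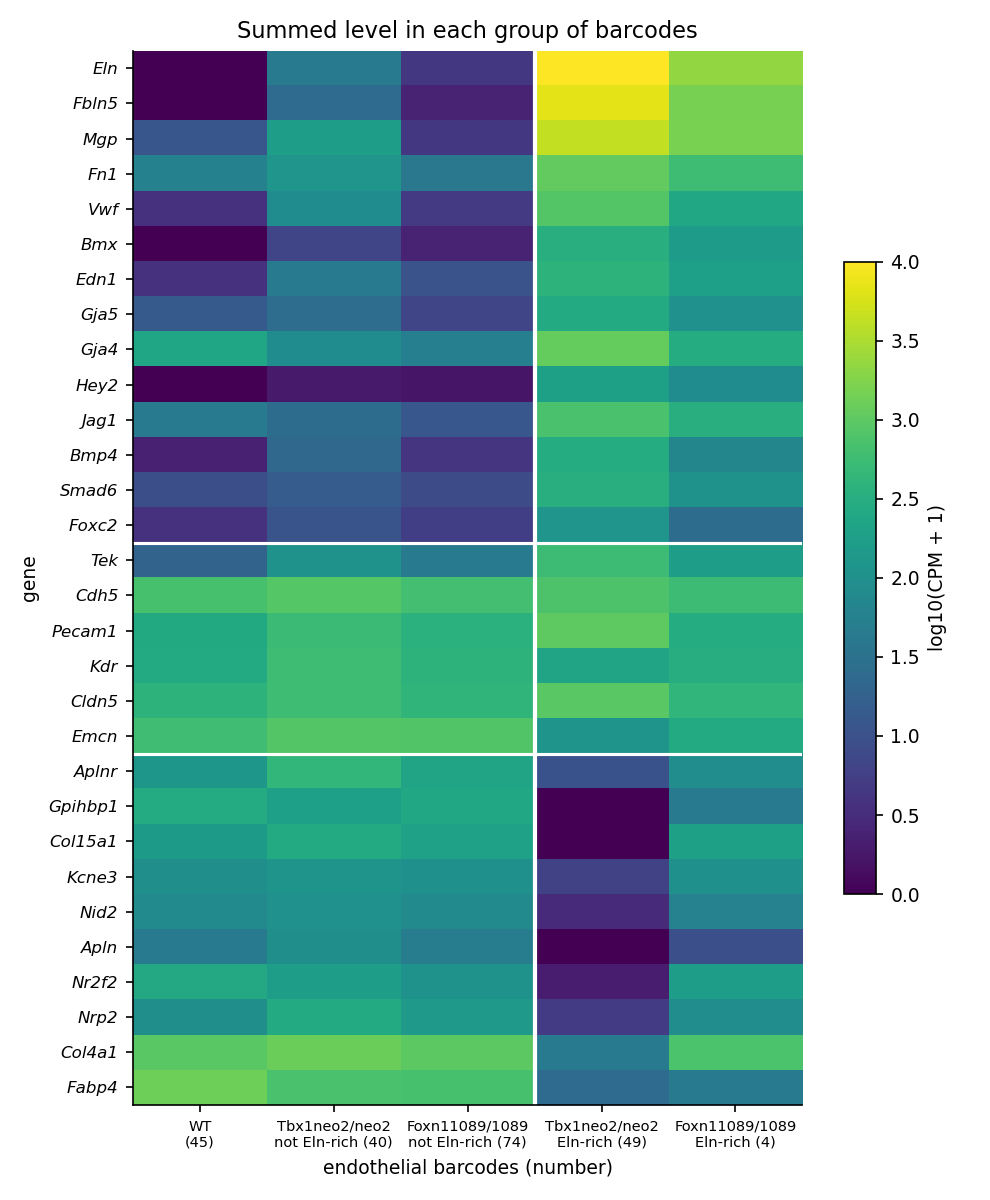
Level of 30 genes as log10 of CPM plus 1 in 5 groups of endothelial barcodes: WT (45), the Tbx1neo2/neo2-labelled library outside the Eln-rich group (40), Foxn11089/1089 outside it (74), and the Eln-rich barcodes of both mutant libraries (49 and 4). Genes from Eln to Foxc2 are high in the Eln-rich columns, and the 6 endothelial genes from Tek to Emcn are seen in all 5. The plexus and venous genes shown from Aplnr to Fabp4 are low in the Eln-rich column of the Tbx1neo2/neo2-labelled library. Eln and Fbln5 set the Eln-rich columns, and Cdh5, Pecam1 and Kdr chose the barcodes. In the Eln-rich column of Foxn11089/1089, 1 barcode of 147249 UMIs weighs most. The other genes were picked after their values were seen, so the figure is a description.

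To compare the libraries gene by gene, UMIs were summed over the endothelial barcodes of each library. The log2 ratio of each mutant library over WT was taken relative to the median ratio of the 7056 genes with 100 or more UMIs. The plain CPM ratios had a median shift of 0.31 on the log2 scale for the Tbx1neo2/neo2-labelled library and 0.21 for Foxn11089/1089. A gene is called past the fold here at a log2 ratio of 1 or more in size. Under the Tbx1neo2/neo2 label 849 genes were higher (12%) and 679 lower (9.62%), and in Foxn11089/1089 437 were higher (6.19%) and 456 lower (6.46%). Without the Eln-rich barcodes 6213 genes were tested, of which 481 were higher (7.74%) and 474 lower (7.63%) under the Tbx1neo2/neo2 label, and 274 were higher (4.41%) and 381 lower (6.13%) in Foxn11089/1089. Of the 849 higher genes, 565 were still tested without the Eln-rich barcodes, and 388 of these remained past the fold. The minimum of 100 UMIs was read over all endothelial barcodes, so a gene could pass it through the library where it is high, and its place among the higher genes was then fixed by the filter. Among the list genes called higher, Bmx, Edn1, Gja5, Hey2, Vegfc, Vwf, Foxc2, Bmp4, Smad6, Tmem100, Rbpj, Vegfa, Thbd, Tal1 and others had fewer than 100 UMIs outside the library labelled Tbx1neo2/neo2, and Eln and Fbln5 had no UMI in WT. Counts and medians of lists that hold such genes describe the genes tested and support no direction. The shares over all tested genes (12% higher and 9.62% lower under the Tbx1neo2/neo2 label, 6.19% and 6.46% in Foxn11089/1089) are the background of every list count over all endothelial barcodes. For list counts without the Eln-rich barcodes the background is 7.74% higher and 7.63% lower under the Tbx1neo2/neo2 label, and 4.41% and 6.13% in Foxn11089/1089.

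Of the 30 pan-endothelial genes, all tested, 6 were higher and 3 lower under the Tbx1neo2/neo2 label, with a median log2 ratio of 0.41, where 12% and 9.62% of all tested genes were so. In Foxn11089/1089 3 were higher and 1 lower, with a median of −0.08, where 6.19% and 6.46% were so. The median over all tested genes was 0 by construction. Egfl7, a secreted factor of endothelium, was level at 695, 1019 and 795 CPM, with log2 ratios of 0.24 (0.11 to 0.38) and −0.01 (−0.15 to 0.13). Robo4 stood at 74, 62.7 and 68.2 CPM over all endothelial barcodes, although it was at 0 in the Eln-rich ones of the Tbx1neo2/neo2-labelled library.

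Tek, the receptor of angiopoietins (ENSMUSG00000006386, chr4:94739289-94874976, plus strand), was higher in both mutant libraries. It had 13 UMIs in WT (17.8 CPM, 9.49 to 30.5), 765 under the Tbx1neo2/neo2 label (250 CPM, 232 to 268) and 165 in Foxn11089/1089 (53.0 CPM, 45.3 to 61.8). The log2 ratios were 3.50 (2.72 to 4.41) and 1.37 (0.55 to 2.31). With the Eln-rich barcodes set aside, the mutant levels were 112 and 42.8 CPM, with log2 ratios of 2.39 and 1.08. Tek was detected in 24.4%, 83.1% and 66.7% of endothelial barcodes. Among all other kept barcodes, where Tek stood at 0.428, 3.44 and 1.62 CPM, the log2 ratios were 2.60 and 1.62. Those barcodes still held some with endothelial genes, as given below, so these ratios do not stand for cells outside endothelium.

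Clec14a, a lectin of endothelial junctions, stood at 37.0, 336 and 88.1 CPM, with log2 ratios of 2.87 (2.32 to 3.48) and 1.04 (0.47 to 1.67). Ptprb stood at 35.6, 362 and 61.7 CPM, with log2 ratios of 3.03 (2.47 to 3.65) and 0.58 (−0.01 to 1.24). Both also had higher levels among the other kept barcodes of the mutant libraries, with log2 ratios of 3.03 and 1.95 for Clec14a and 3.28 and 2.16 for Ptprb. Fli1, an ETS factor of blood and endothelium (chr9:32422204-32542861), was lower in both. It stood at 400, 163 and 143 CPM, with log2 ratios of −1.61 (−1.82 to −1.40) and −1.69 (−1.91 to −1.47), and among the other kept barcodes the ratios were −1.76 and −2.70. The other kept barcodes included 5, 13 and 35 with 3 or more rule genes that had an Epcam or Ptprc UMI. Cdh5 stood at 1.08, 5.20 and 9.49 CPM in the other kept barcodes, beside 681, 845 and 624 CPM in the endothelial ones. What such barcodes add to these ratios, and what part of the endothelial values differs across a whole library, was not tested. Tal1, a factor of blood and endothelial progenitors, stood at 5.48, 34.3 and 17.4 CPM, and its ratios in the other kept barcodes were −0.48 and −0.69. Cd34 stood at 380, 1241 and 600 CPM, and without the Eln-rich barcodes it was 442 CPM under the Tbx1neo2/neo2 label, a log2 ratio of −0.04. Gpihbp1 stood at 292, 122 and 234 CPM, and without the Eln-rich barcodes at 178 CPM under the Tbx1neo2/neo2 label, a log2 ratio of −0.97.

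**Figure D4:**
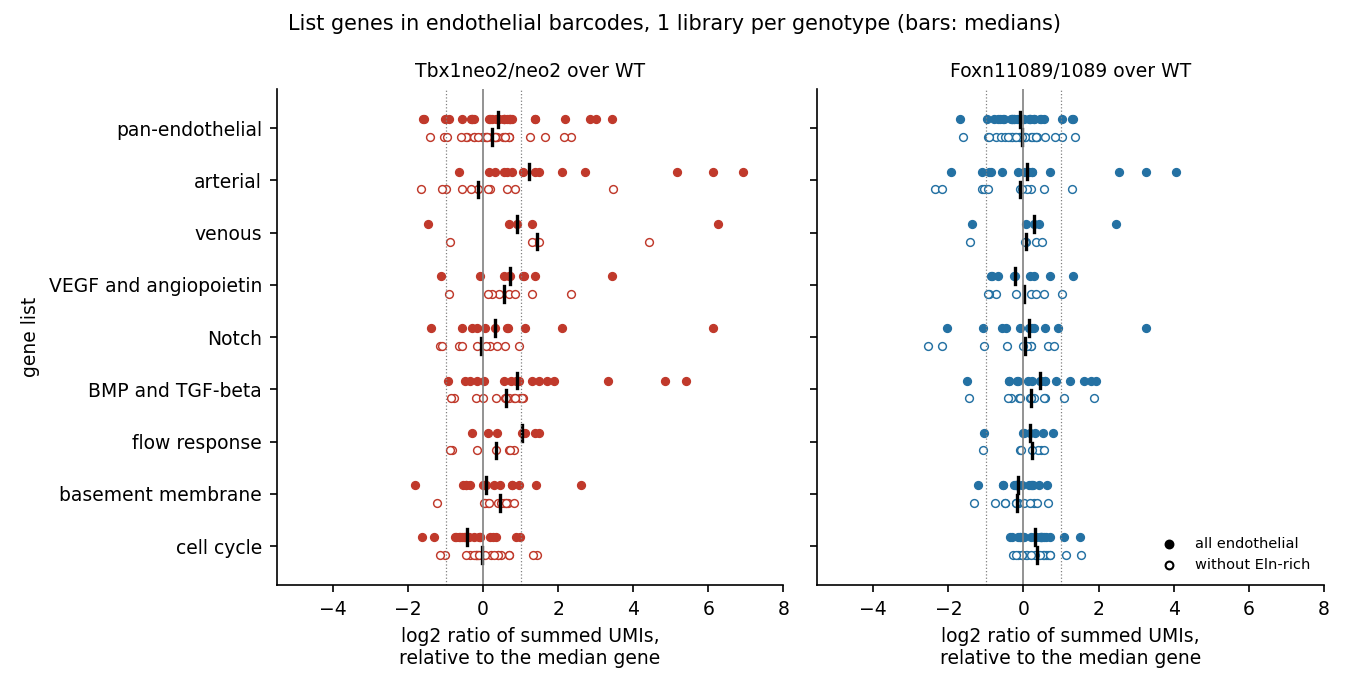
Log2 ratios of each mutant library over WT for the tested genes of 9 gene lists, relative to the median of all tested genes. Each point is a gene, filled for all endothelial barcodes and open without the Eln-rich ones, bars are list medians and dotted lines mark ratios of 1 and −1. Under the Tbx1neo2/neo2 label the arterial median is 1.22 with the Eln-rich barcodes and −0.15 without them.

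Of 17 arterial genes, 14 were tested. Under the Tbx1neo2/neo2 label 8 were higher and 0 lower, with a median log2 ratio of 1.22, and in Foxn11089/1089 3 were higher and 2 lower, with a median of 0.08. Of the 8 and 3 higher genes, 5 and 3 had fewer than 100 UMIs outside the library labelled Tbx1neo2/neo2. Without the Eln-rich barcodes 11 genes could be tested, of which 1 was higher and 2 lower under the Tbx1neo2/neo2 label (median −0.15) and 1 was higher and 4 lower in Foxn11089/1089 (median −0.10). Jag1 stood at 43.9, 239 and 34.7 CPM. Its log2 ratio under the Tbx1neo2/neo2 label was 2.13 (1.62 to 2.69) with and −1.08 without the Eln-rich barcodes, where it stood at 24.8 CPM. Gja4 (chr4:127311421-127314039) stood at 232 CPM (198 to 269) in WT, 422 CPM (399 to 445) under the Tbx1neo2/neo2 label and 70.7 CPM (61.7 to 80.7) in Foxn11089/1089. Its log2 ratios were 0.55 (0.32 to 0.79) and −1.92 (−2.22 to −1.62). When the Eln-rich barcodes were removed, Gja4 was lower in both, at 87.4 and 51.9 CPM with log2 ratios of −1.66 and −2.35.

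Efnb2 (ephrin B2, the arterial guidance ligand) stood at 125, 173 and 76.5 CPM, with log2 ratios of 0.16 (−0.16 to 0.50) and −0.91 (−1.27 to −0.55). Without the Eln-rich barcodes it stood at 75.5 and 66.9 CPM in the mutant libraries, with ratios of −0.98 and −1.09. Dll4, the Notch ligand of tip and arterial cells, differed little at 30.2, 47.4 and 39.5 CPM, and its log2 ratios of 0.34 (−0.31 to 1.06) and 0.18 (−0.48 to 0.91) included 0. Mecom, a zinc finger factor, stood at 43.9, 154 and 60.1 CPM, and Nrp1, the VEGF co-receptor of arteries, at 159, 516 and 301 CPM. Unc5b, a netrin receptor, stood at 61.7, 49.6 and 33.4 CPM and was past the fold in Foxn11089/1089 alone.

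Barcodes were also read singly after each was thinned to 2000 UMIs. A barcode with UMIs of 2 or more of the 17 arterial genes is called arterial-marked, and venous-marked likewise from the 8 venous genes. Lymphatic-marked barcodes had Prox1 and 1 or more other genes of that list. Arterial-marked were 18 of 43 in WT, or 41.9% (27.0 to 57.9), 61 of 85 under the Tbx1neo2/neo2 label, or 71.8% (61.0 to 81.0), and 28 of 76 in Foxn11089/1089, or 36.8% (26.1 to 48.7). Unthinned, the shares were 88.9%, 94.4% and 93.6%. Thinned to 5000 UMIs they were 61.5% (44.6 to 76.6), 81.25% (71.0 to 89.1) and 71.2% (59.4 to 81.2). There WT was lowest in place of Foxn11089/1089 and its interval overlapped that of the Tbx1neo2/neo2 label, so no order of the libraries is read from them. All 49 Eln-rich barcodes of the Tbx1neo2/neo2-labelled library were arterial-marked after thinning, and 12 of its 36 others, or 33.3% (18.6 to 51.0). The mesenchymal-marked barcodes, where some of these genes are also used, gave 16.6%, 24.7% and 14.1%, and red blood cells gave 0.559%, 0.270% and 1.33%.

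**Figure D5:**
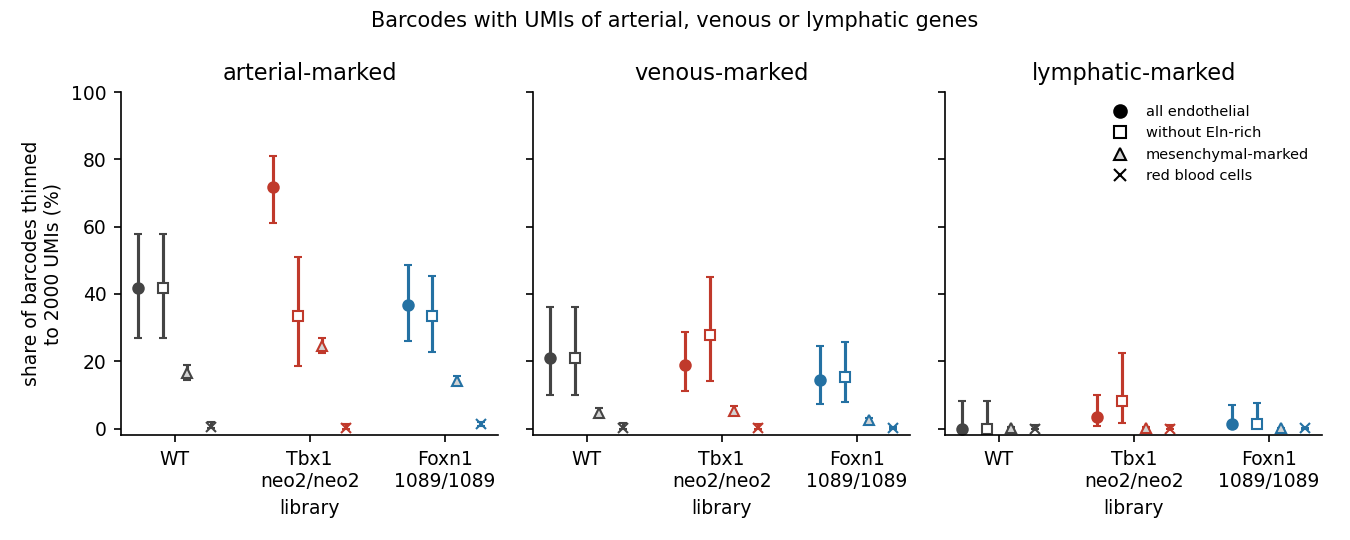
Share of barcodes that were arterial-, venous- or lymphatic-marked after thinning to 2000 UMIs, in percent with 95% counting intervals, for each library. Symbols stand for all endothelial barcodes, those outside the Eln-rich group, mesenchymal-marked barcodes and red blood cells. The arterial-marked share of the Tbx1neo2/neo2-labelled library is 71.8% over all endothelial barcodes and 33.3% outside the Eln-rich group.

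Of 8 venous genes, 5 were tested. Under the Tbx1neo2/neo2 label Ephb4 and Vwf were higher and Nr2f2 lower (median log2 ratio 0.91), and in Foxn11089/1089 Vwf was higher and Nr2f2 lower (median 0.29). Vwf stands in this list and is also the first of the 7 large-artery genes: 820 of its 1003 UMIs under the Tbx1neo2/neo2 label and 57 of its 68 in Foxn11089/1089 lay in Eln-rich barcodes, and WT had 2. Nr2f2 stood at 255 CPM (220 to 294) in WT, 114 CPM (103 to 127) under the Tbx1neo2/neo2 label and 113 CPM (102 to 126) in Foxn11089/1089. The WT interval lay above both. The log2 ratios were −1.47 (−1.73 to −1.20) and −1.38 (−1.64 to −1.12), beside −0.52 and −0.50 among the other kept barcodes. Nr2f2 was found in 75.6%, 31.5% and 79.5% of endothelial barcodes. Leaving the Eln-rich barcodes out, it stood at 167 and 108 CPM in the mutant libraries, with log2 ratios of −0.87 and −1.42, so that only the ratio of Foxn11089/1089 stayed past the fold. In those barcodes 4 of 5 venous genes were higher under the Tbx1neo2/neo2 label (median 1.43) and 1 was lower in Foxn11089/1089 (median 0.06). Over all genes tested there 7.74% and 6.13% were so. Vwf is 1 of the 4 and passed the minimum through the library labelled Tbx1neo2/neo2, with 84 and 44 of its UMIs there in a pair of barcodes.

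Ephb4, the receptor of ephrin B2, was past the fold under the Tbx1neo2/neo2 label alone. It stood at 37.0, 116 and 45.3 CPM, with log2 ratios of 1.33 (0.77 to 1.95) and 0.08 (−0.52 to 0.74). It was 121 CPM under the Tbx1neo2/neo2 label without the Eln-rich barcodes. Aplnr stood at 132, 308 and 204 CPM, with log2 ratios of 0.92 (0.61 to 1.24) and 0.42 (0.11 to 0.75), and at 447 and 213 CPM without the Eln-rich barcodes, with ratios of 1.51 and 0.51. Nrp2, a co-receptor of VEGF-C in veins and lymphatics, stood at 96.0, 194 and 136 CPM, and at 282 and 140 CPM without them. The selectins and the chemokine receptor of adult venules were near 0: Selp had 0, 8 and 0 UMIs, Sele had 2, 0 and 3, and Ackr1 had 0, 6 and 1. Venous-marked after thinning were 9 of 43 barcodes in WT, or 20.9% (10.04 to 36.0), 16 of 85 under the Tbx1neo2/neo2 label, or 18.8% (11.2 to 28.8), and 11 of 76 in Foxn11089/1089, or 14.5% (7.45 to 24.4). These intervals overlap, and the mesenchymal-marked barcodes gave 4.66%, 5.37% and 2.52%. Thinned to 5000 UMIs the venous-marked shares were 43.6%, 56.25% and 52.1%, with WT lowest in place of highest, so no order is read from them.

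Among lymphatic genes, Prox1, the factor that sets lymphatic identity (chr1:190118035-190170714), had 13, 117 and 82 UMIs in the endothelial barcodes, found in 3 of 45, 13 of 89 and 8 of 78. Most of these UMIs came from a few barcodes with UMIs of Prox1, Ccl21a and Reln together. There were 2 such barcodes in WT, or 4.44% (0.543 to 15.1), 4 under the Tbx1neo2/neo2 label, or 4.49% (1.24 to 11.1), and 2 in Foxn11089/1089, or 2.56% (0.312 to 8.96). They held 92.3%, 90.6% and 91.5% of the Prox1 UMIs. Ccl21a encodes a chemokine of lymphatic vessels, has near-identical copies and is therefore an uncertain value. These barcodes held 99.8%, 99.9% and 71.8% of its UMIs. Of Lyve1, the hyaluronan receptor of lymphatic vessels, they held 24 of 24, 32 of 34 and 1 of 1 UMIs. None of the 8 barcodes was Eln-rich. Flt4 (VEGFR3), which blood capillaries of the embryo also carry, was spread more widely, with 14.6%, 30.7% and 12.8% of its UMIs in them.

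Sums of Prox1, Ccl21a, Lyve1 and Reln over a library therefore rested mostly on 2 to 4 barcodes. The same barcodes held 44.1%, 41.3% and 20.7% of the UMIs of Mmrn1 (multimerin 1) and 13.6%, 16.9% and 6.58% of those of Itga9 (an integrin of lymphatic valves). Of 10 lymphatic genes 7 were tested. Ccl21a, at 775, 337 and 167 CPM, and Nts were lower in both mutant libraries. Foxc2, a forkhead factor of lymphatic valves and arteries, had 2, 139 and 19 UMIs, of which 118 lay in the Eln-rich barcodes of the library labelled Tbx1neo2/neo2, and it passed the minimum through that library. Medians of the list were 0.28 and −0.24, and the first turned to −0.88 with every barcode weighted equally and to −1.05 with barcodes thinned to 5000 UMIs. Lyve1 stood at 32.9, 11.1 and 0.322 CPM, and all its 24 WT UMIs came from 1 barcode. Nts, a neuropeptide, gave the lowest ratios of all ranked genes. It had 884 UMIs in 12 WT barcodes, 187 in 15 barcodes under the Tbx1neo2/neo2 label and 30 in 13 barcodes of Foxn11089/1089, with log2 ratios of −4.62 and −7.18. A pair of WT barcodes held 500 and 246 of the 884 UMIs, and both had no UMI of Prox1. After thinning, 0 of 43 WT barcodes were lymphatic-marked, which allows up to 6.98%, against 3 of 85 (3.53%, 0.734 to 9.97) and 1 of 76 (1.32%, 0.0333 to 7.11).

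Of 9 tested receptors and ligands of the VEGF and angiopoietin pathways, 4 were higher and 1 lower under the Tbx1neo2/neo2 label (median 0.73). Over all tested genes 12% and 9.62% were so. In Foxn11089/1089 1 was higher (median −0.22), beside 6.19% of all tested genes. Of the 4, Vegfa and Vegfc had fewer than 100 UMIs outside the library labelled Tbx1neo2/neo2, and 2 of 8 were higher and 0 lower without its Eln-rich barcodes. Flt1 (VEGFR1, a decoy receptor) stood at 171, 313 and 224 CPM, and Tie1, the partner of TIE2, at 154, 317 and 112 CPM. Of 8 tested tip cell genes, 0 were higher and 1 was lower under the Tbx1neo2/neo2 label (median −0.50), and 0 were higher and 2 lower in Foxn11089/1089 (median −0.17). Esm1 (endocan, a tip cell product) stood at 21.9, 4.90 and 24.4 CPM.

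Signalling lists were read next. Of 11 tested Notch genes, Jag1, Hey2 and Rbpj were higher and Notch2 lower under the Tbx1neo2/neo2 label (median 0.31). In Foxn11089/1089 Notch2 and Notch4 were lower (median 0.16), and Hey2, with 0 UMIs in WT and 23 in Foxn11089/1089, was counted as higher through the filter. Outside the Eln-rich group 0 of 10 were higher and 2 lower under the Tbx1neo2/neo2 label (median −0.04), and 0 were higher and 3 lower in Foxn11089/1089 (median 0.04). Notch2 was also lower among the other kept barcodes, with ratios of −1.36 and −1.79. Notch1, the main receptor of arterial fate, stood at 79.5, 157 and 112 CPM. Of 16 tested BMP and TGF-beta genes 7 were higher and 0 lower under the Tbx1neo2/neo2 label (median 0.91), and 4 were higher and 1 lower in Foxn11089/1089 (median 0.45). Bmp4 (1, 329 and 25 UMIs) and Tmem100 (1, 226 and 22 UMIs) are among the higher genes of both and Smad6 (6, 338 and 47 UMIs) of the first, all of which passed the minimum through the library labelled Tbx1neo2/neo2. Without the Eln-rich barcodes 2 of 13 were higher under the Tbx1neo2/neo2 label and 2 higher and 1 lower in Foxn11089/1089, with medians of 0.60 and 0.20.

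Id1, a direct target of BMP signals, stood at 94.6 CPM (73.6 to 120), 290 CPM (272 to 310) and 416 CPM (394 to 440), with log2 ratios of 1.31 and 1.93. It was also higher among the other kept barcodes, with ratios of 0.69 and 2.12. Smad6, an inhibitor of BMP signals, stood at 8.22, 110 and 15.1 CPM, and in the Eln-rich barcodes of the Tbx1neo2/neo2-labelled library at 320 CPM against 13.4 CPM in the others. Tgfb1, a ligand, stood at 293, 189 and 121 CPM, and among the other kept barcodes its log2 ratios were −1.49 and −2.01. Of 7 flow response genes 4 were higher under the Tbx1neo2/neo2 label (Klf4, Thbd, Cav1 and Pecam1, median 1.03) and Nos3 was lower in Foxn11089/1089 (median 0.19). Over all tested genes 12% were higher in the former and 6.46% lower in the latter. Pecam1 is a gene of the rule that chose the barcodes. Thbd passed the minimum through the library labelled Tbx1neo2/neo2, so the calls of these genes add no support. With the Eln-rich barcodes set aside, none of the 7 was past the fold under the Tbx1neo2/neo2 label (median 0.35). Klf2, the leading factor of the flow response, stood at 333, 455 and 379 CPM, with log2 ratios of 0.14 (−0.06 to 0.34) and −0.02 (−0.22 to 0.18).

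The list of fibrillar and elastic matrix, which the study names for mesenchyme of these samples, is no independent evidence. It also holds genes that are not matrix, such as the receptor Fzd1 and the transcription factor Foxp1. Of its 14 tested genes, 12 were higher under the Tbx1neo2/neo2 label (median 1.67) and 8 in Foxn11089/1089 (median 1.28). Over all tested genes 12% and 6.19% were so. Eln and Fbln5, which drew the Eln-rich line and had no UMI in WT, count among the higher genes. Fzd1 passed the minimum through the library labelled Tbx1neo2/neo2. Without the Eln-rich barcodes 8 of 11 were higher under the Tbx1neo2/neo2 label (median 1.47), and 2 were higher and 1 lower in Foxn11089/1089 (median 0.34). Col1a1, the fibrillar collagen of mesenchyme, stood at 17.8, 98.6 and 98.7 CPM in endothelial barcodes and at 426, 933 and 344 CPM in the other kept barcodes. The 9 mesenchymal marker genes moved with these values. They summed to 144, 499 and 570 CPM in the endothelial barcodes, against 7512, 9175 and 7637 CPM in the mesenchymal-marked barcodes, and 1, 9 and 9 endothelial barcodes had UMIs of 2 or more of the 4 mesenchymal marker genes. Their part in the result was not tested. The basement membrane list stayed near the shares over all tested genes. Of 15 tested, 2 were higher and 1 lower under the Tbx1neo2/neo2 label (median 0.07), beside 12% and 9.62% of all tested genes. In Foxn11089/1089 1 was lower (median −0.13), beside 6.46%. Col4a1 stood at 953, 869 and 959 CPM and Col4a2 at 480, 414 and 381 CPM, although their levels in the Tbx1neo2/neo2-labelled library were divided as given above.

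Summed over all endothelial barcodes, the fatty acid carrier Fabp4 stood at 1309, 490 and 638 CPM and was past the fold in both mutant libraries, with log2 ratios of −1.73 (−1.85 to −1.61) and −1.24 (−1.36 to −1.13), beside −0.29 and 0.50 among the other kept barcodes. Of 7 tested genes of caveolae and transport 1 was higher and 2 lower under the Tbx1neo2/neo2 label and 1 lower in Foxn11089/1089, where 12% and 9.62% of all tested genes, and 6.46% in Foxn11089/1089, were so. Of 12 tested genes of leukocyte entry 3 were higher and 1 lower under the Tbx1neo2/neo2 label, and 1 higher and 1 lower in Foxn11089/1089, near the 6.19% and 6.46% over all tested genes in the latter. All 3 higher genes (Cd99l2, Cxcl12 and Spns2) had fewer than 100 UMIs outside the library labelled Tbx1neo2/neo2. Madcam1, an adhesion ligand for homing cells, stood at 45.2, 41.5 and 37.3 CPM, and Spns2, the exporter of sphingosine 1-phosphate, at 12.3, 37.2 and 28.3 CPM. Of 11 tested junction genes 3 were higher under the Tbx1neo2/neo2 label, and 2 were higher and 2 lower in Foxn11089/1089. Of 7 tested hypoxia genes 2 were higher and 1 lower under the Tbx1neo2/neo2 label and none was past the fold in Foxn11089/1089.

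Of 20 cell cycle genes, all tested, 2 were lower under the Tbx1neo2/neo2 label (median −0.42) and 2 higher in Foxn11089/1089 (median 0.32), near the 9.62% lower and 6.19% higher over all tested genes. The median under the Tbx1neo2/neo2 label was −1.01 with every barcode weighted equally. After thinning to 2000 UMIs, 21 of 43 WT barcodes had UMIs of 2 or more of 12 G2/M genes, or 48.8% (33.3 to 64.5). Under the Tbx1neo2/neo2 label 17 of 85 did, or 20% (12.1 to 30.1), and in Foxn11089/1089 39 of 76, or 51.3% (39.6 to 63.0). Unthinned, the shares were 75.6%, 57.3% and 82.1%. Of the Eln-rich barcodes under the Tbx1neo2/neo2 label 3 of 49 did, or 6.12% (1.28 to 16.9), and of the others 14 of 36, or 38.9% (23.1 to 56.5). The low share of that library therefore lay in its Eln-rich barcodes. Ccnd1, the cyclin of G1, stood at 11.4 CPM in them and 511 CPM in the others. Cdkn1c (p57, an inhibitor of the cycle) stood at 875, 529 and 511 CPM over all endothelial barcodes.

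Among genes ranked by size alone, Tsc22d1, a leucine zipper factor, and Meg3, an imprinted noncoding RNA, stood among the 10 highest in both comparisons, at log2 ratios of 3.13 and 2.70 under the Tbx1neo2/neo2 label and 2.26 and 2.08 in Foxn11089/1089. Among the other kept barcodes the ratios were 2.21 and 1.70 for Tsc22d1 and 2.72 and 2.26 for Meg3, so both differences were present across the libraries. Stmn2, a microtubule protein of neurons, was highest under the Tbx1neo2/neo2 label at 3.42 and stood at −0.69 without the Eln-rich barcodes. Slc6a6, the taurine transporter, stood at 2.45 and at 2.38 without them. Among the lowest, the histone gene Hist1h1b stood at −4.21 and the ribosomal-repeat transcript Gm42418 at −3.55 under the Tbx1neo2/neo2 label, beside −4.00 and −5.12 among the other kept barcodes. Gm42418 stood at −4.38 in Foxn11089/1089, beside −5.44. Red blood cell transcripts moved with the libraries too. The embryonic globin Hbb-y stood at 26.0, 148 and 364 CPM in the endothelial barcodes, beside 41.9, 57.5 and 509 CPM in the other kept barcodes, and was left out of the ranking.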

How the data were processed

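Fetal thymic lobes of 3 genotypes were profiled by droplet 3′ single-cell RNA sequencing, with 1 library per genotype. Per the submitters' processing notes, reads were processed with Cell Ranger 3.0.0 and Seurat on mm10. The matrices the authors deposited hold raw UMI counts of each gene in each called cell and were not normalized. They summed to 82936619 (WT), 137498422 (Tbx1neo2/neo2) and 204655055 (Foxn11089/1089) over 6410, 5759 and 12447 barcodes. Coordinates of genes were read from GENCODE mouse release 21 (GRCm38).

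Barcodes with at least 200 genes, at least 500 UMIs, under 20% mitochondrial and under 5% hemoglobin UMIs were kept. The endothelial rule and the gene lists were chosen with earlier results of these data known. UMIs were summed over barcodes per library and given as CPM with exact Poisson intervals. Shares have exact Clopper-Pearson intervals and log2 ratios conditional binomial ones, all at 95%. Where a count of 0 is said to allow a value, 3 was put in place of 0, a narrower limit than the exact interval. Calls, list medians and the settings in the closing section add 0.5 UMI to both sums, while single log2 ratios in the report do not. A 3′ tag counts a transcript once whatever its length. No genotype comparison was tested, because cells are not replicates. For shares of marked barcodes each barcode was thinned to 2000 UMIs with a fixed seed, leaving out shallower ones (2, 4 and 2). Scrublet scores in scanpy 1.11.5 marked the top 0.8% per 1000 barcodes as likely doublets, which were kept in the main values. The scripts were checked on simulated counts.

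Genes named are those of the lists, the 20 most enriched over other kept barcodes (200 or more UMIs), and the 10 highest and 10 lowest ratios of each comparison (200 or more UMIs in all and 20 in each library). The latter leaves out the rule, mitochondrial, globin, ribosomal protein, Xist and Y-linked genes. Genes named for the Eln-rich division were chosen after their values were seen. Alternatives changed the rule, depth, doublets, scaling, gene minimum and weighting. Those on the Eln-rich barcodes, on sex-linked UMIs and on Epcam or Ptprc were chosen after seeing the data. The work used scipy 1.17.1 and numpy 2.4.6 for intervals and thinning, anndata 0.12.19 and pandas 2.3.3 for tables, and matplotlib 3.10.9 for figures, in Python 3.11.15.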

Additional observations from a re-analysis of the deposited data

How the results depend on the processing

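No paired analysis was possible because each genotype has 1 library, and no library could be left out in turn. Settings on Eln-rich barcodes, on Y-linked UMIs and on Epcam or Ptprc were chosen after seeing the data. Of the alternatives, 315 of 336 list medians, 761 of 952 single-gene log2 ratios, 42 of 56 counts of genes past the fold, 32 of 33 Eln-rich shares and 21 of 27 endothelial shares moved within the limits set for them. The cause was not tested for those below, unless fewer barcodes or genes by construction account for them.

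The endothelial share became 0.464% in WT with the rule applied after thinning to 2000 UMIs. Under the Tbx1neo2/neo2 label it became 2.20% with 2 of 5 rule genes, 2.37% with 2000 or more UMIs and 0.779% without the Eln-rich barcodes, and in Foxn11089/1089 1.12% with 2 of 5 and 1.22% with Epcam or Ptprc allowed. The Eln-rich share under the Tbx1neo2/neo2 label was 67.2% among barcodes with Y-linked UMIs and no Xist. Thinned to 5000 UMIs, the arterial-marked shares were 61.5%, 81.25% and 71.2% and the venous-marked shares 43.6%, 56.25% and 52.1% in WT, Tbx1neo2/neo2 and Foxn11089/1089. With 3 genes needed, venous-marked shares were 9.30%, 9.41% and 2.63% and the arterial-marked share of Foxn11089/1089 was 15.8%. Without the Eln-rich barcodes the arterial-marked share under the Tbx1neo2/neo2 label was 33.3%, and without likely doublets the lymphatic-marked share of Foxn11089/1089 was 0.

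Genes higher under the Tbx1neo2/neo2 label numbered 481 without the Eln-rich barcodes, 1433 on plain CPM ratios, 1392 with barcodes thinned to 5000 UMIs and 1473 with a minimum of 30 UMIs. The lower ones numbered 312, 1098 and 1118 in the last 3 settings. For Foxn11089/1089 these were 274, 723, 941 and 914 higher and 285, 853 and 850 lower.

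List medians under the Tbx1neo2/neo2 label turned or moved as follows without the Eln-rich barcodes: arterial −0.15, venous 1.43, tip cell 0.069, flow 0.35 and basement membrane 0.44. With every barcode weighted equally they were venous 0.24, lymphatic −0.88, basement membrane −0.51 and cell cycle −1.01. Thinned to 5000 UMIs they were arterial 1.92, lymphatic −1.05 and cell cycle −1.10. Among barcodes with Y-linked UMIs alone they were pan-endothelial 0.74, flow 1.44 and basement membrane 0.41, and without likely doublets venous was 1.53. In Foxn11089/1089 the VEGF median was 0.42 and the basement membrane median 0.25 thinned to 5000 UMIs, flow was 0.996 with Y-linked UMIs alone, and fibrillar matrix was 0.29 without likely doublets and 0.34 without the Eln-rich barcodes. Single log2 ratios that turned were Cd34 (−0.038) and Jag1 (−1.08) under the Tbx1neo2/neo2 label and Mgp (−1.86) in Foxn11089/1089 without the Eln-rich barcodes, and Lyve1 under the Tbx1neo2/neo2 label without likely doublets (3.29), with the rule after thinning (3.01) and with Y-linked UMIs alone (2.57). WT Lyve1 rested on 1 barcode.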
